A study of Rattus norvegicus with 2 samples.

Results

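The 10 genes described here encode secreted, non-collagen components of the extracellular matrix: fibronectin (Fn1), periostin (Postn), decorin (Dcn), lumican (Lum), biglycan (Bgn), fibrillin-1 (Fbn1), osteonectin (Sparc), tenascin C (Tnc), thrombospondin 1 (Thbs1) and thrombospondin 2 (Thbs2). They were chosen by gene symbol. The deposited gene table, of 29516 rows, lists 8 of the 10 under these symbols. Tnc and Thbs1 were not found under their symbols and are not analysed here. The tissue was kidney of F344 rats, an inbred strain prone to chronic kidney disease as it ages. The soy library was taken at the age of 20 months, after 4 months on a diet with 14% soy that began at 16 months. The casein library was of the same strain and age, after a casein control diet for the same time. Each diet has 1 library, so no difference below has a replicate check or a test across samples, and the sources used here do not say whether a library holds RNA of 1 rat or of several, or which part of the kidney was taken.

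These proteins surround cells and tie collagen fibrils to them. Fibronectin is laid down early in scar tissue and is bound by integrins on the cell surface. Decorin, biglycan and lumican are small leucine-rich proteoglycans that coat collagen fibrils, fibrillin-1 forms the microfibrils around elastic fibres, and Sparc, Postn, Tnc and the thrombospondins are matricellular proteins, which regulate cells and fibril assembly more than they bear load. In the kidney they are made mainly by interstitial fibroblasts, pericytes, vascular and mesangial cells, and several increase in fibrosis.

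In the soy kidney, 7 of the 8 listed genes had lower values than in the casein kidney and 1, Thbs2, was near level. Of the 8, 5 were at least 1.5-fold lower (Postn, Lum, Fbn1, Fn1 and Sparc), Bgn and Dcn were lower by less than that, and 0 were at least 1.5-fold higher. Among the 21057 genes listed with any value above 0, 11.2% were lower by that much and 5.07% higher. Values are FPKM, fragments per kilobase of transcript, scaled to the number of mapped fragments. Differences are given as folds of the FPKM values and as log2((soy FPKM + 0.1)/(casein FPKM + 0.1)), where the added 0.1 pulls low genes toward 0. Further counts kept genes that averaged 1 FPKM or more over both libraries, a limit that 6 of the 8 passed. Of these 6, 3 (Fn1, Fbn1 and Sparc) were at least 1.5-fold lower, where 8.08% of the 14077 genes over the same limit were at least 1.5-fold lower and 3.43% at least 1.5-fold higher. The median log2 difference was -0.66 over the 6 genes and 0.01 over all 14077.

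**Figure D1:**
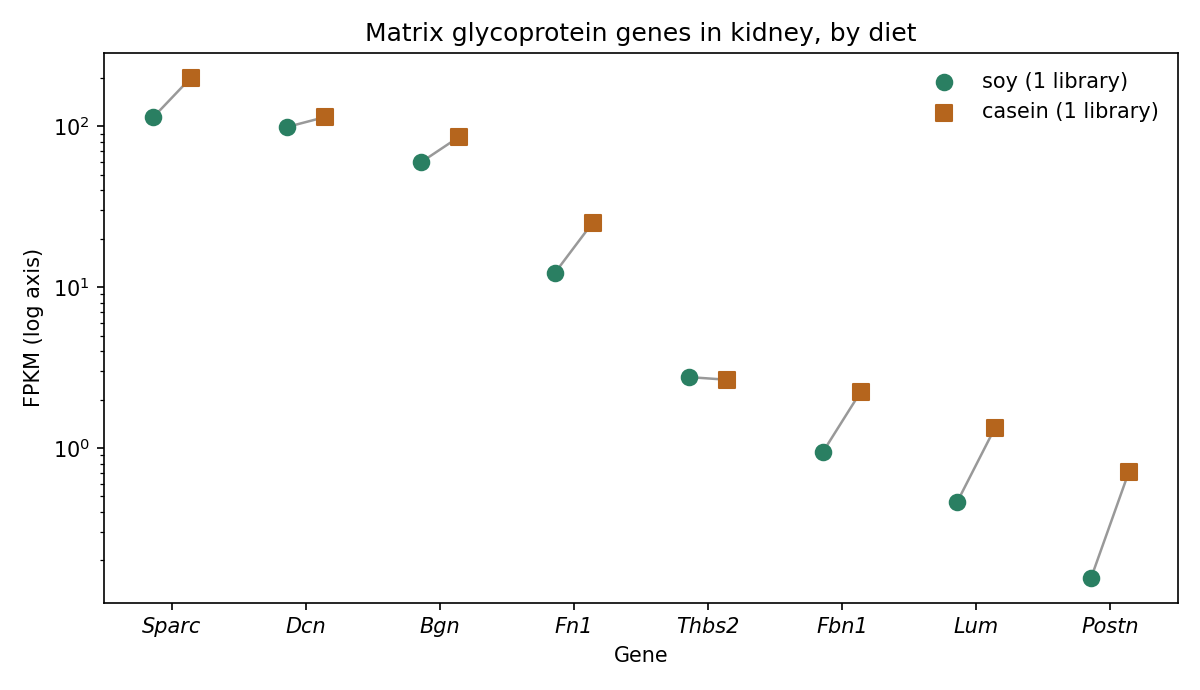
FPKM (log axis) of the 8 listed matrix glycoprotein genes in the soy library (green circles) and the casein library (brown squares), ordered by level, with a line joining both values of a gene. The soy value lies below the casein value for 7 genes, and Thbs2 (2.76 FPKM with soy, 2.66 with casein) is the exception.

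Differences of this size were more common among weakly expressed genes. With soy, a value 1.5-fold lower or more was found for 17.5% of genes with a mean above 0 and below 1 FPKM, where Postn and Lum lie, and 17.7% of genes with a mean of 1 to 5 FPKM, where Fbn1 and Thbs2 lie. Among genes of 5 to 50 FPKM, the range of Fn1, the share was 4.94%, and among genes of at least 50 FPKM, the range of Sparc, Dcn and Bgn, it was 3.04%. Fn1 and Sparc therefore lie among levels where such differences were less common than at the levels of Postn, Lum and Fbn1. The number of reads behind the values is unknown, so no counting interval can be given. The authors' deposited table calls 2 of the 8 genes, Fbn1 and Fn1, both lower with soy. As the labels give 1 library a diet, these q-values rest on no spread between rats that is known here. Over all genes it calls 0.745% of the 17450 genes with test status OK lower and 0.103% higher.

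**Figure D2:**
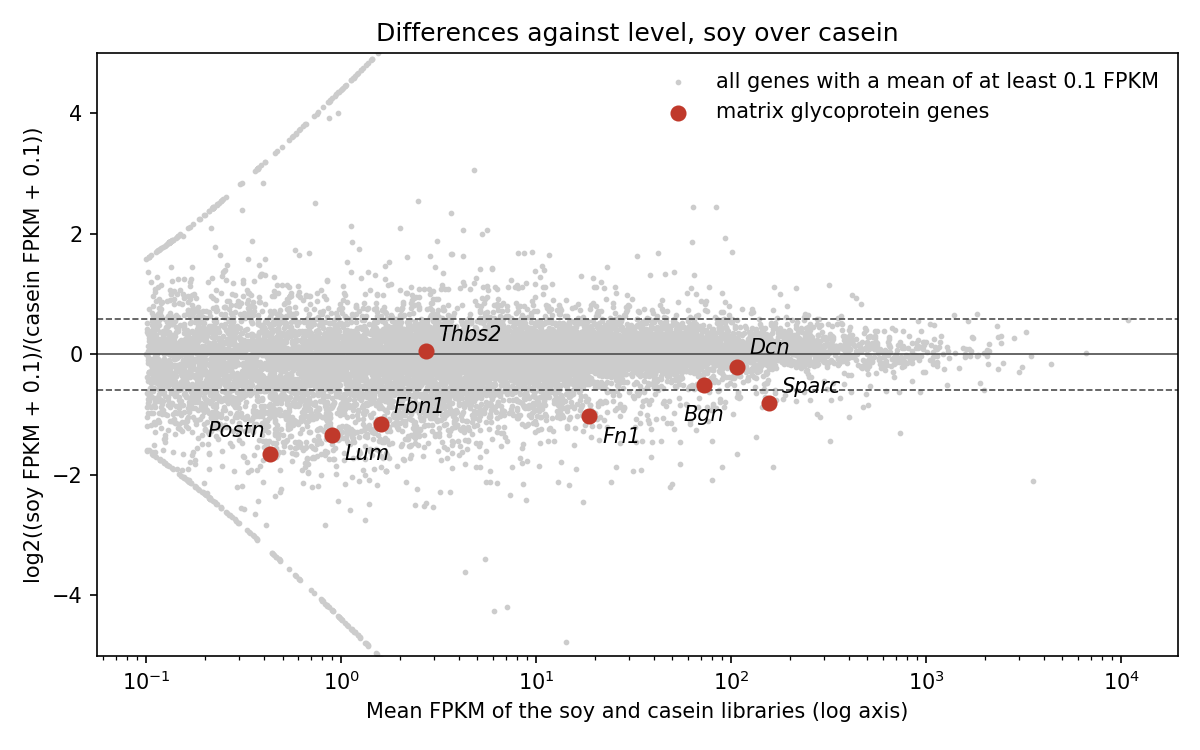
Log2 difference of soy over casein against the mean FPKM of both libraries (log axis), for 17474 genes averaging 0.1 FPKM or more in grey and the 8 matrix glycoprotein genes in red. Dashed lines mark 1.5-fold, and 170 genes lie beyond the vertical axis, which ends at 5 in both directions. Fn1 and Sparc lie below the lower dashed line at levels where the grey points are narrow.

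Promoter sequence from RefSeq (build GRCr8) was found for 4 of the 8 listed genes, Postn, Lum, Fbn1 and Sparc, the ones other than Fn1 that were at least 1.5-fold lower. The 250 bases before the annotated start were searched on both strands for 6 motifs: the TATA box TATAAA, the AP-1 site TGANTCA, the SMAD core motif CAGAC, the CCAAT box CCAAT, the GC box GGGCGG and the TEAD site CATTCC. The windows of Postn, Lum and Fbn1 lie inside the annotated span of their own gene, so a longer transcript may begin further upstream, and only 30 bases around a single match are shown for Postn and Lum. Sparc is shown whole because its window lies outside the annotated span of its gene. Capitals mark the matches, a TATA box in Postn, a CCAAT box read on the other strand in Lum, and in Sparc 3 SMAD core motifs and, between the last of them and the one before, a TEAD site. The Postn stretch lies at chr2:140678005-140678034 on the plus strand, the Lum stretch at chr7:34245564-34245593 on the plus strand and the Sparc window at chr10:40038817-40039066 on the minus strand.
Postn: agcccagagctcTATAAAttcagctctcta
Lum: gaggctggcgtgATTGGgctggtccccccc
Sparc: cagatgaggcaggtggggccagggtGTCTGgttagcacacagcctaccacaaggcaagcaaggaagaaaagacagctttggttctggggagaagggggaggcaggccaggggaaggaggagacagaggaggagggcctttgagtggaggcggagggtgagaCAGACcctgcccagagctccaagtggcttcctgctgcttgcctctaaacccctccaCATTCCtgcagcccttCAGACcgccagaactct

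The SMAD core motif was the motif found in all 4 windows, 3 times each in Lum and Sparc and 1 time each in Postn and Fbn1. It is short and common, and 42.9% of the 33469 RefSeq windows of this length hold it. The TATA box of Postn begins 44 bases before the start, and 12.9% of windows hold such a box. The TEAD site of Sparc begins 33 bases before the start and is in 12.1% of windows, and the CCAAT box of Lum is in 34.0%. AP-1 sites (6.34% of windows) and GC boxes (30.5%) were not among the letters of these 4 windows. No match overlapped another. The matches describe sequence and do not show binding.

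Fibronectin, the adhesive glycoprotein that cells use as a scaffold for further matrix, was 2.04-fold lower with soy. Fn1 (ENSRNOG00000014288, chromosome 9 from 70702180 to 70775109) had 12.3 FPKM with soy and 25.2 FPKM with casein, a log2 difference of -1.03. All coordinates of this and the following genes are those of the deposited table, and the sources used here do not name its genome build. In the authors' deposited table Fn1 has q = 0.0360 and is called. A second row, listed as D4A420_RAT, has the same listed locus, with 0 FPKM with soy and 0.159 with casein, so fragments could have been split between them and the Fn1 value is uncertain to that extent. The Fn1 row is a gene-level value and does not separate the plasma form of fibronectin from the forms with extra domains that cells deposit locally.

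The small leucine-rich proteoglycans were lower to unequal degrees. Decorin, which binds collagen fibrils and TGF-beta, was the most abundant of them. Dcn (ENSRNOG00000004554, chromosome 7 from 35004233 to 35045174) had 99.1 FPKM with soy and 114 FPKM with casein, 1.15-fold lower (log2 -0.20). Biglycan, its closest relative, which in mice also acts on Toll-like receptors of macrophages, was 1.43-fold lower. Bgn (ENSRNOG00000017440, chromosome X from 159380548 to 159391521) had 59.9 FPKM with soy and 85.7 FPKM with casein (log2 -0.52), just inside the 1.5-fold limit. Lumican, a keratan sulphate proteoglycan that limits fibril thickness, had the largest fold of the 3. Lum (ENSRNOG00000004610, chromosome 7 from 35083479 to 35090283) had 0.462 FPKM with soy and 1.32 FPKM with casein, 2.87-fold lower (log2 -1.34), at a level below 1 FPKM on average. The authors' deposited table calls none of the 3, with q = 0.999991 for Dcn, q = 0.525 for Bgn and q = 0.234 for Lum.

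Other genes of this class gave no common direction. Lum lies 38.3 kb from Dcn, and the next genes of that cluster, the keratocan gene Kera and the epiphycan gene Epyc, were listed at 0 under both diets. On chromosome 17 the neighbouring genes for osteoglycin, osteomodulin and asporin were each close to level. Ogn had 13.6 FPKM with soy and 12.8 with casein, Omd 2.73 and 2.33, and Aspn 1.29 and 1.21. The prolargin gene Prelp on chromosome 13 had 15.7 FPKM with soy and 14.8 with casein, but it shares its listed locus with other rows, so its value is uncertain. Fibromodulin, Fmod, the nearest relative of lumican, had 0.642 FPKM with soy and 1.001 with casein. Thus Ogn, Omd, Aspn and Prelp were slightly higher with soy, while Dcn, Bgn, Lum and Fmod were lower.

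**Figure D3:**
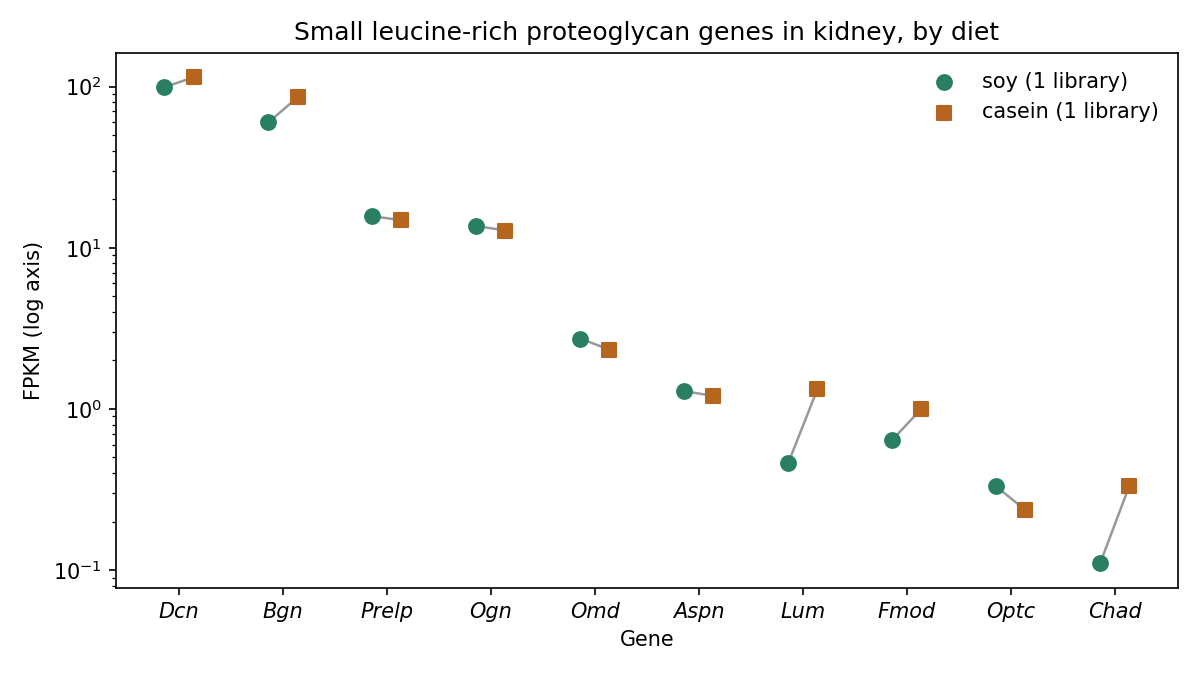
FPKM (log axis) of 10 small leucine-rich proteoglycan genes with a value above 0, in the soy library (green circles) and the casein library (brown squares). Dcn and Bgn are the most abundant and lie slightly lower with soy, Prelp, Ogn, Omd and Aspn are near level, and Lum (0.462 FPKM with soy, 1.32 with casein) is apart from its neighbour Dcn.

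Fibrillin-1 builds the microfibrils on which elastin is deposited, and these also hold latent TGF-beta complexes in the matrix. Fbn1 (ENSRNOG00000007302, chromosome 3 from 112608479 to 112804118) had 0.950 FPKM with soy and 2.23 FPKM with casein, 2.35-fold lower (log2 -1.15). The authors' deposited table calls it with q = 0.0281. Their table of 145 transcripts, all of them with the authors' mark of significance, holds 1 transcript of the 8 genes, an Fbn1 transcript. In the authors' deposited table of transcripts it has 0.950 FPKM with soy, 2.23 FPKM with casein and q = 0.0330.

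Sparc, a collagen-binding matricellular protein that many stromal and endothelial cells secrete, had the highest level of the 8 genes under both diets. Sparc (ENSRNOG00000012840, chromosome 10 from 40809739 to 40831496) had 114 FPKM with soy and 199.8 FPKM with casein, 1.76-fold lower (log2 -0.81). The authors' deposited table does not call it (q = 0.113). Periostin, which links fibronectin and collagen and is scarce in the healthy adult kidney of mice and rats, had the largest fold of the 8 at the lowest level. Postn (ENSRNOG00000012660, chromosome 2 from 143537098 to 143568341) had 0.156 FPKM with soy and 0.706 FPKM with casein, 4.52-fold lower (log2 -1.65), and the authors' deposited table does not call it (q = 0.0547). At these levels its log2 difference depends on the pseudocount, at -2.11 with 0.01 and -0.56 with 1. Thrombospondin 2, which in mice restrains vessel growth and shapes collagen fibrils, was the gene that was not lower. Thbs2 (ENSRNOG00000010529, chromosome 1 from 53587567 to 53613637) had 2.76 FPKM with soy and 2.66 FPKM with casein, a log2 difference of 0.05, and the authors' deposited table gives q = 0.999991.

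The order of the 8 genes by FPKM was the same under both diets, running downward through Sparc, Dcn, Bgn, Fn1, Thbs2, Fbn1, Lum and Postn. The first 3 made up 94.2% of the summed FPKM of the 8 genes with soy and 92.6% with casein. That sum was 289 FPKM with soy and 432 FPKM with casein, 1.49-fold lower, and most of its difference lies in Sparc. Ratios within a library carry no scaling between libraries and show how unequal the differences were. There was 0.124 times as much Fn1 as Dcn with soy and 0.221 times with casein. Sparc stood at 1.15 times Dcn with soy and 1.75 times with casein. The ratio of Bgn to Dcn was 0.604 with soy and 0.751 with casein. Thbs2 and Fbn1, close in level with casein (a ratio of 1.19), stood further apart with soy (2.90).

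Lists of related matrix genes were counted by the same limits, and all 14077 genes give the background of 8.08% lower and 3.43% higher. This background is not matched for level. Among genes averaging 1 to 5 FPKM the shares were 17.7% lower and 5.97% higher. Several of the lower genes named below lie in that range, such as Ltbp2, Loxl2, Mfap4, Itga4, Tlr2 and Tlr4. Among 14 measured elastic fibre and microfibril genes, the partners of fibrillin-1, 7 were lower with soy by 1.5-fold or more and 0 higher, with a median log2 of -0.59. Of the 7, the lysyl oxidase gene Lox (0.953 FPKM with soy, 1.57 with casein) shares its listed locus with other rows and is uncertain. Without rows that share a listed locus, 6 of 12 were lower by that much. Ltbp2, which encodes a fibrillin-binding protein, had 2.05 FPKM with soy and 6.08 with casein. The lysyl oxidase-like enzymes that cross-link elastin and collagen were lower for Loxl1 (17.7 FPKM with soy, 36.3 with casein) and for Loxl2 (1.79 and 4.54 FPKM in the same order). In the same family Loxl4 was higher, with 3.76 FPKM with soy and 2.60 with casein, less than 1.5-fold, and Loxl3, which averaged below 1 FPKM, had 0.849 and 0.784. Mfap4, a microfibril-associated glycoprotein gene, had 1.14 FPKM with soy and 2.79 with casein, whereas elastin itself, Eln, had 2.58 and 3.09. The authors' deposited table calls Ltbp2 (q = 0.000655) and Loxl1 (q = 0.0143) and no other of the 14.

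Other proteoglycan and matricellular genes lay on both sides of level. Of 10 measured proteoglycan genes 1 was at least 1.5-fold lower and 1 higher, with a median log2 of 0.08. The lower one was Prg4, the lubricin gene, with 2.77 FPKM with soy and 4.40 with casein, but its test status is FAIL in the authors' deposited table and it shares its listed locus with another row, as does Vcan. The higher one was Spock2, the testican 2 gene, with 3.66 FPKM with soy and 2.15 with casein. The large proteoglycan versican, Vcan, had 1.11 and 1.29 FPKM. Of 19 measured matricellular and adhesive glycoprotein genes, 1 was at least 1.5-fold lower and 2 higher, with a median log2 of -0.16. The lower one was Mgp, the matrix Gla protein that inhibits calcification, with 424 FPKM with soy and 1045 with casein. The higher ones were the matrilin gene Matn1 (54.5 FPKM with soy, 21.9 with casein) and Smoc2 (14.5 and 8.80 in the same order). The authors' deposited table calls Mgp (q = 0.000186) and Matn1 (q = 2.86e-05) and not Smoc2 (q = 0.232).

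Fibrillar and network collagen genes were at least 1.5-fold lower in 10 of 14 cases, with 0 higher by that much and a median log2 of -0.90. By any amount, 12 were lower and 2 higher. The higher ones were Col4a3 (20.7 FPKM with soy, 13.9 with casein) and Col4a4 (48.8 and 37.3). Examples of the lower ones are Col1a1 (5.51 FPKM with soy, 15.5 with casein), Col3a1 (11.4 and 30.5) and Col6a1 (5.21 and 11.7). The authors' deposited table calls these 3, with q = 0.00665 for Col6a1. Of 18 measured receptor genes for these glycoproteins, 5 were at least 1.5-fold lower and 0 higher, with a median log2 of -0.29. Cd44, a receptor for hyaluronan and osteopontin that also binds fibronectin, had 10.6 FPKM with soy and 27.7 with casein. The lower receptors also include the integrin genes Itga4 (0.847 and 1.77 FPKM) and Itgb3 (4.03 and 6.43). The remaining ones were the biglycan receptors Tlr2 (1.70 and 3.26) and Tlr4 (1.21 and 2.14). Cd44 is the one receptor that the authors' deposited table calls (q = 1.06e-05).

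**Figure D4:**
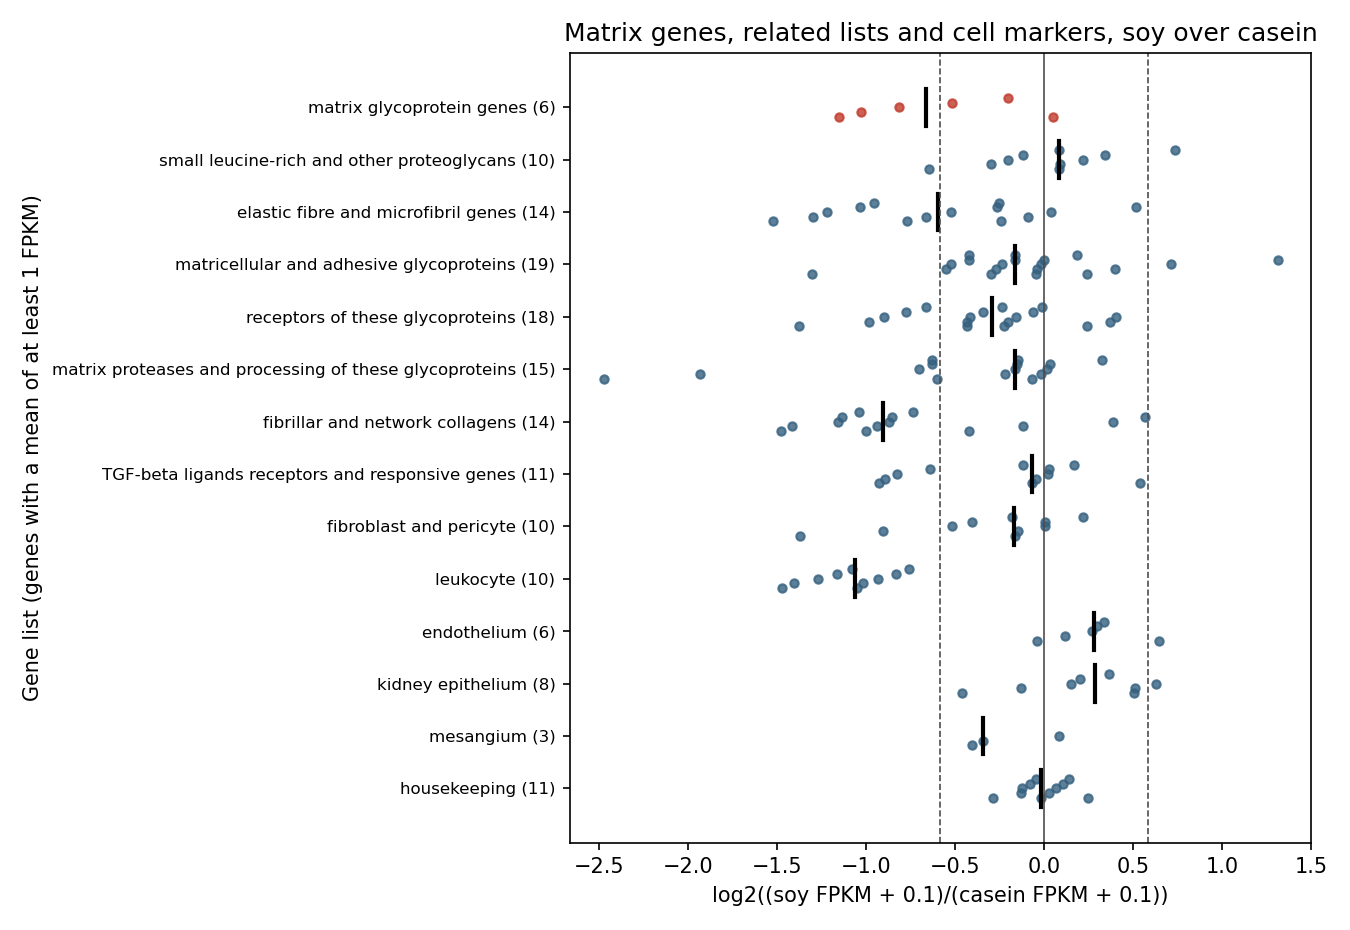
Log2 difference of soy over casein for each gene averaging 1 FPKM or more (points) in the matrix glycoprotein list (red), related matrix lists and cell type marker lists (blue), with the list median as a black bar and the number of genes in brackets. Dashed lines mark 1.5-fold; all 10 leukocyte markers lie below the lower one, while the fibroblast and pericyte markers centre near 0 (median -0.17).

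Of 15 measured protease and processing genes, 6 were at least 1.5-fold lower and 0 higher, with a median log2 of -0.16. Adamts1, a protease that cleaves versican and other proteoglycans, had 13.0 FPKM with soy and 49.9 with casein, and Mmp7, the protease matrilysin, 0.757 and 4.66. Bmp1, the procollagen proteinase that also trims proforms of small leucine-rich proteoglycans, had 6.92 FPKM with soy and 10.8 with casein. Dse, the epimerase that makes the dermatan sulphate chains carried by decorin and biglycan, had 3.43 and 5.64. Among 11 measured TGF-beta ligands, receptors and responsive genes, 4 were at least 1.5-fold lower and 0 higher, with a median log2 of -0.06. All 3 ligand genes were among the 4, with 13.2 FPKM with soy and 25.1 with casein for Tgfb1, 1.98 and 3.58 for Tgfb2, and 1.27 and 2.04 for Tgfb3. The Tgfb2 row shares its listed locus with another row. The other was Tgif1, which encodes a repressor of SMAD-driven transcription, with 18.2 FPKM with soy and 33.8 with casein. The authors' deposited table calls none of the 4, with q = 0.0932 for Tgfb1 and q = 0.0504 for Tgif1.

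Cell type markers were read in the same libraries, because in whole tissue fewer cells of a type and less RNA per cell cannot be told apart. The kidney epithelium markers were present and mostly somewhat higher with soy, with a summed 6084 FPKM with soy and 4890 with casein over 8 genes. Fibroblast and pericyte markers, from the cells that make most of these proteins, were at least 1.5-fold lower for 2 of 10 genes, with 0 higher and a median log2 of -0.17. Vim, the intermediate filament vimentin, had 74.6 FPKM with soy and 193 with casein, and Des, desmin, had 7.47 and 14.1. Vimentin is also made by leukocytes and injured tubule cells. The receptor gene Pdgfrb had 8.47 FPKM with soy and 11.2 with casein, with test status FAIL, and Pdgfra, which marks fibroblasts, had 12.0 and 11.9. The fibroblast and pericyte sum was 275 FPKM with soy and 418 with casein. Vim is the largest part of this sum and holds most of its difference. By any amount, 7 of the 10 markers were lower and 3 higher. The higher ones were S100a4 (70.4 FPKM with soy, 60.4 with casein) and, almost level, Rgs5 (14.6 and 14.5) and Pdgfra. None of these 10 markers was at 0.

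All 10 leukocyte markers were at least 1.5-fold lower with soy, with a summed 115 FPKM with soy and 235 FPKM with casein, a median log2 of -1.06 and none at 0. Of these Aif1 (28.8 FPKM with soy, 48.8 with casein) shares its listed locus with many other rows and is uncertain, and the other 9 were all lower by that much, with sums of 86.2 FPKM with soy and 186 FPKM with casein. With a 2-fold limit 7 of the 10 remained. Among them Tyrobp, a signalling adaptor of myeloid cells, had 38.0 FPKM with soy and 85.2 with casein, and the T cell receptor component Cd3d 2.67 and 7.59. Endothelial markers were at least 1.5-fold higher for 1 of 6 genes, with 0 lower, and summed to 137 FPKM with soy and 116 with casein. The 3 measured mesangial markers all lay within 1.5-fold, with a sum of 21.0 FPKM with soy and 23.5 with casein. These sums include Pdgfrb (8.47 FPKM with soy, 11.2 with casein), which has test status FAIL and is also counted among the fibroblast and pericyte markers. The leukocyte markers moved in the same direction as Fn1, Fbn1, Sparc, Lum and Postn, and their part in those differences was not tested.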

How the data were processed

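The authors deposited a gene table with 1 FPKM value per diet and their own log2 fold, p-value and q-value per gene, and a table of called transcripts with the same columns, per the file headers. Per the submitters' processing notes Bowtie, TopHat and Cufflinks were used. Versions, genome build, annotation, further scaling between libraries and the number of libraries behind the authors' test are not stated in those sources. The deposited FPKM values summed to 656248 with soy and 643145 with casein. FPKM are not counts, so the read depth is unknown, and a listed 0 can be a failed estimate.

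Differences were log2 ratios with a pseudocount of 0.1 FPKM, and counts used a 1.5-fold limit among genes averaging 1 FPKM or more. With 1 library per diet no test was run. Symbols, and for the related lists their RefSeq synonyms, were matched to the table. All 8 listed genes have status OK. The genes and lists were chosen with earlier results of these data known. The rule for named genes took all listed glycoprotein genes, up to 4 genes per related list by absolute log2 value, and 8 genes of interest where listed, and not every gene it took is printed. Values given beyond this rule were chosen after they were seen. They are those for leucine-rich relatives, Lox, Loxl3, Loxl4, Col4a3, Col4a4, Aif1, Pdgfra, Itgb3, S100a4 and Rgs5. Some genes of the related lists are not reported here and were left out of the counts. Counting was tested on simulated data. Other pseudocounts, limits, centrings and q-value limits were tried. Tables were computed with pandas 2.3.3 and numpy 2.4.6 in Python 3.11.15 and drawn with matplotlib 3.10.9.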

Additional observations from a re-analysis of the deposited data

How the results depend on the processing

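The direction of all 8 genes was the same under every pseudocount and scaling tried, but these settings could not have changed it. Adding the same pseudocount to both values cannot reverse a difference. The scalings moved values by 0.03 or less on the log2 scale, which is less than the smallest difference, 0.05 for Thbs2. The pseudocount moved the low genes: with 0.01 the log2 differences were -2.11 for Postn and -1.50 for Lum, and with 1 they were -0.56 for Postn, inside 1.5-fold, -0.67 for Lum and -0.73 for Fbn1. With no limit on low values 5 genes, not 3, were at least 1.5-fold lower, with a median log2 of -0.92, where 11.2% of the 21057 genes with any value were. With a 2-fold limit 2 genes stayed, against 3.59% of genes. Of the 8 genes, 0 had a q of at most 0.01 in the authors' deposited table and 3 had a q of at most 0.1, against 2 called. The share of all genes at these q limits was not counted, so it cannot be said whether these counts are unusual. Leaving out rows that share a listed locus, an alternative chosen after the data were seen, removed Fn1 and left 2 genes at least 1.5-fold lower, with a median log2 of -0.52, and 0 proteoglycan genes lower. Leaving out short RNAs, an alternative chosen after the data were seen, gave a background of 7.23% in place of 8.08%. Centring shifted values by 0.03 or less on the log2 scale. Counts of lower genes in the related lists under a 2-fold limit were 0 for proteoglycans, 4 for elastic fibre genes, 1 for receptors, 2 for proteases, 6 for collagens, 0 for TGF-beta genes, 1 for fibroblast markers and 7 for leukocyte markers. With a pseudocount of 1 they were 0 for proteoglycans, 3 for receptors and 2 for proteases, and the share of all genes was not counted. At a mean of at least 5 FPKM, 4.51% of all 10260 genes were at least 1.5-fold lower. So were 2 glycoprotein genes, Fn1 and Sparc. Counts in the related lists were 0 for proteoglycans, 2 for elastic fibre genes, 1 for matricellular genes, 2 for receptors and 3 for proteases. They were 7 for collagens, 2 for TGF-beta genes, 2 for fibroblast markers and 7 for leukocyte markers. The number of genes each list kept at this limit was not counted, so these counts cannot be set against that share. These settings change which genes are counted or how large a fold is, some toward more genes or larger folds and others toward fewer or smaller. No paired analysis was possible because each diet has 1 library.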

Other observations

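Sparc belongs to a small family of secreted proteins that share a calcium-binding domain, and its relatives did not share its difference. Sparcl1, the hevin gene, had 9.14 FPKM with soy and 8.04 with casein, and Fstl1 had 21.1 and 21.8 in the same order. Smoc2 and Spock2 were higher with soy by 1.65-fold and 1.70-fold. Among the 4 relatives that averaged 1 FPKM or more, 2 were higher by 1.5-fold or more and 0 lower, while Sparc was 1.76-fold lower. The family was singled out after these values had been seen, and the difference between Sparc and its relatives rests on 1 library per diet.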
